A study of Rattus norvegicus with 36 samples.

Results

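The genes that load amino acids onto transfer RNAs and that drive the ribosome along the message were followed in rat soleus muscle after contusion of the spinal cord, with and without treadmill training. They were taken by symbol alone. A gene belonged to the set when its symbol was 1 letter followed by "ars" with an optional 1 or 2, when it was Eprs1, Farsa, Farsb, Aimp1 or Aimp2, or when it began with Eef. Of 14217 genes that had a probe set with 1 symbol, 46 fitted, and they were read by 72 of the 31042 probe sets. They comprise 17 cytosolic synthetases, 2 synthetases whose product serves both compartments (Gars1 and Kars1), 13 mitochondrial synthetases, 3 scaffold proteins of the multisynthetase complex, 7 elongation factors and 4 enzymes that modify elongation factors. Eef1e1 carries the name of an elongation factor but is a scaffold protein, and it was placed there. For the 20 genes with several probe sets, the brightest, judged by its log2 average across the 36 arrays, was used, so no comparison between groups entered the choice. No filter on low signals was applied, and all 46 genes were tested.

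An aminoacyl-tRNA synthetase joins an amino acid to its matching transfer RNA. The cytosol and the mitochondrion use separate enzymes for most amino acids, and both kinds are encoded in the nucleus. Several cytosolic synthetases sit together in a large complex that is held by scaffold proteins. Elongation factor eEF1A brings the charged transfer RNA to the ribosome, the eEF1B proteins recharge eEF1A with GTP, and eEF2 moves the ribosome to the next codon. In adult skeletal muscle fibres the eEF1A2 form of eEF1A largely takes the place of eEF1A1. The kinase eEF2K slows elongation by phosphorylating eEF2. Many cytosolic synthetase genes are known targets of the transcription factor ATF4, which is made when amino acids run short or when the endoplasmic reticulum is stressed.

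The rats were adult female Sprague Dawley animals, 16 weeks old, with 6 rats and 6 arrays in each of 6 groups. The controls (CTR) were uninjured and age-matched. The other groups all carried a moderate contusion at thoracic level T8, made with the NYU-MASCIS weight-drop device, and were sampled 3, 8 or 14 days later (SCI3d, SCI8d, SCI14d), or after training on a treadmill (TM). In SCI8d + TM the rats walked in 3 sessions, 2 on day 7 and 1 on day 8. In SCI14d + TM they walked 2 times a day for 5 days, and every session lasted 20 min. The left soleus was taken, in trained rats 8 h after the last session. No trained uninjured group was part of the design, so training was compared only among injured rats. The study describes no sham-operated group. Injury came with anaesthesia, laminectomy and painkillers, and experimental animals had access to a dough diet. In comparisons with CTR these cannot be told apart from the contusion.

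Signals are linear intensities from Affymetrix rat arrays, on which the authors brought every array to a trimmed mean that came to 799.99 here. The median signal of an array ran from 167.2 to 235.6. Group means of the log2 signals were fitted with limma over all 36 arrays, and a gene was called when its p, adjusted over all 31042 probe sets, was under 0.05. SCI8d replicate 1 and SCI14d replicates 2 and 4 correlated least with their own group, with a median r of 0.910, 0.913 and 0.899, against 0.929 to 0.961 for the others. The soleus markers were present. All 12 slow-fibre and sarcomere genes, Myh7 among them, lay at or above percentile 99.9 of mean log2 signal, and none was called on day 3, 8 or 14 against controls. On day 14 the mean of all 12 was nevertheless lower than in controls, with a median log2 change of −0.31 and 5 of them at an unadjusted limma p under 0.05, and 1 was called lower than on day 3. Over all 31042 probe sets 5488 had such an unadjusted p on day 14 against controls.

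Across the 6 groups, 25 of the 46 genes differed in limma's F-test, where 21.9% of all probe sets did. They were 11 of 17 cytosolic synthetases, Gars1 and Kars1, 6 of 13 mitochondrial synthetases, 2 of 3 scaffold proteins, 3 of 7 elongation factors and 1 of 4 modifying enzymes.

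On day 3 after injury 11 of 17 cytosolic synthetases rose, while of 13 mitochondrial ones 3 fell and 0 rose. Of the 46 members, 16 were called higher and 4 lower than in controls. The background over all probe sets was 7.22% called higher and 9.24% lower. At that share 0 of 13 called higher is near the background. The members are bright genes, with a median brightness percentile of 86.2, so the background was also taken over genes with a mean log2 signal above 10. Of 4736 such genes 16.5% were called higher and 18.3% lower, against 14 and 1 of the 29 members above that limit. The 2 compartments differ in brightness. Every cytosolic synthetase but Farsa (9.24) passed the limit, and of the mitochondrial ones only Iars2 (10.45) did. The bright background thus does not cover the other mitochondrial synthetases. With the arrays scaled to the GAPDH controls instead, 10 of the 46 members were called higher and 2 lower. Every SCI3d array lay above every CTR array for 9 members and below for 2. Over all probe sets 3.42% were separated upward and 4.31% downward.

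**Figure D1:**
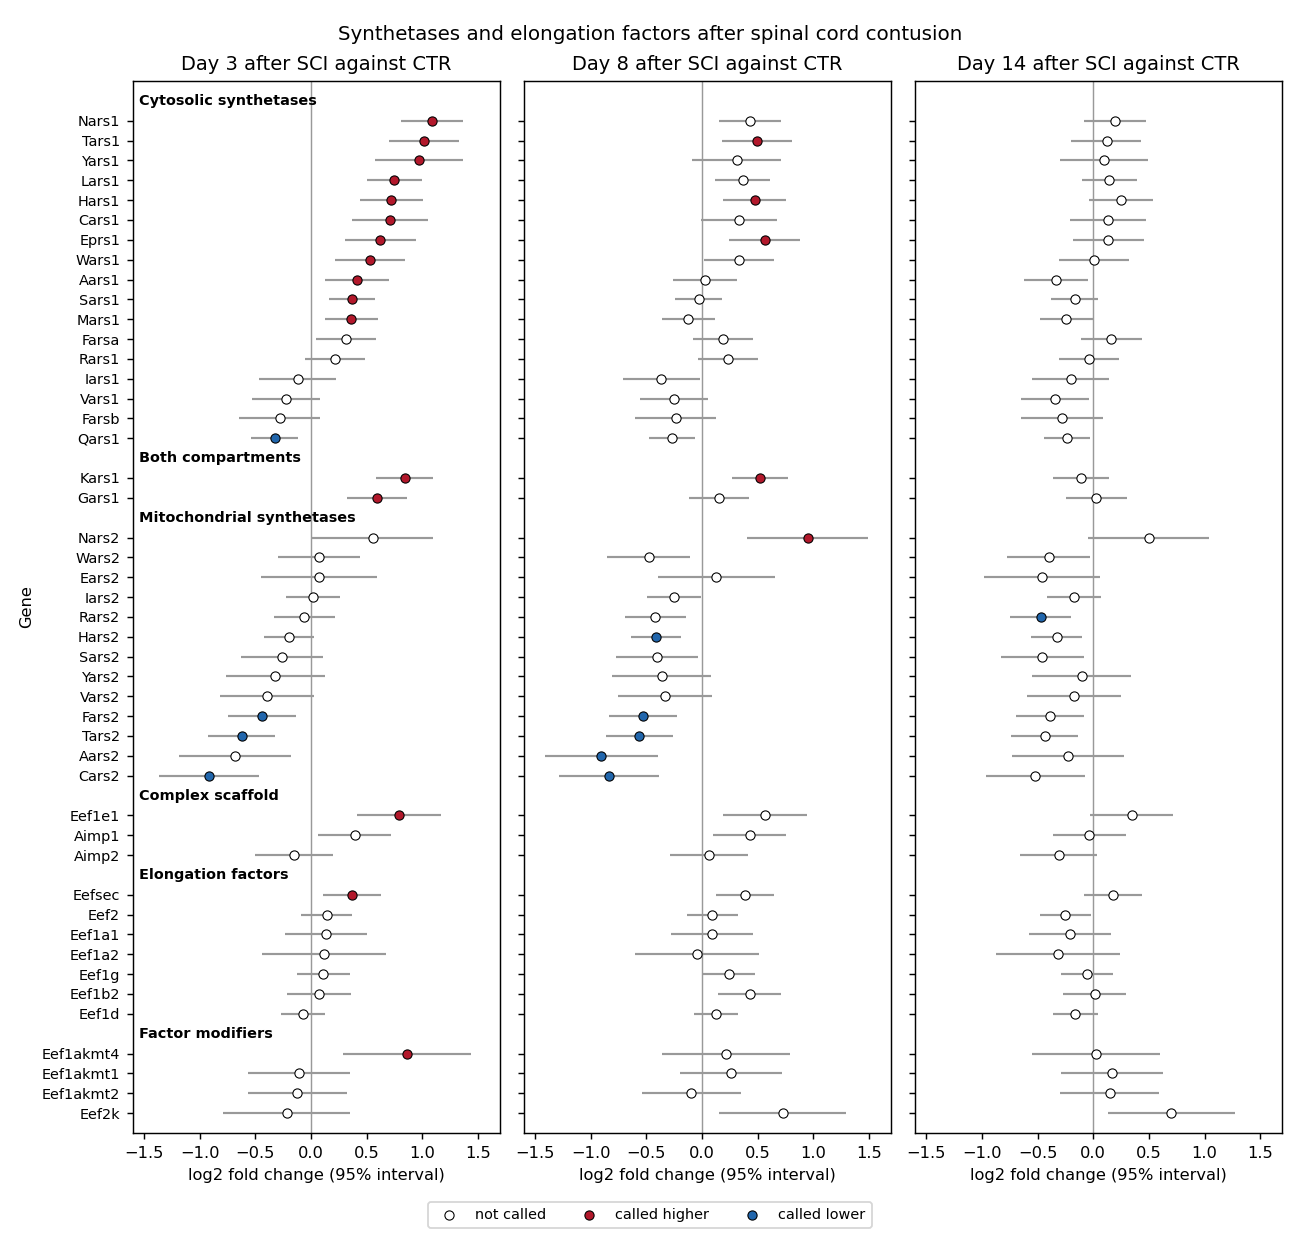
Log2 fold change of the 46 genes against CTR on day 3, day 8 and day 14 after SCI (x axis), with 95% intervals from limma and n = 6 arrays per group. Filled points passed an adjusted p of 0.05. On day 3, 11 of 17 cytosolic synthetases are filled on the higher side, and 3 of 13 mitochondrial ones on the lower side.

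Among the 17 cytosolic synthetases, 11 rose on day 3, 1 fell and 5 were not called. The median log2 fold change of the 17 was 0.42, against −0.04 over all probe sets. Nars1, which charges asparagine tRNA (Entrez 291556, chr18:60259506-60275782 of GRCr8), moved most. Its signal was 3081 to 3409 in controls (median 3262) and 5558 to 8084 in SCI3d (median 6969). The ranges were far apart, and the change was 1.09 on the log2 scale (SE 0.14, adjusted p = 9.72e-07), or 2.12-fold. Tars1, the threonine enzyme, read 1170 to 1746 in controls (median 1296) and 2153 to 3817 in SCI3d (median 2668). It rose by 1.02 (SE 0.16, adjusted p = 1.51e-05). The tyrosine enzyme Yars1 read 1673 to 2094 in controls (median 1807) and 2340 to 7050 in SCI3d (median 3663), a rise of 0.97 (SE 0.20, adjusted p = 0.000469). SCI3d replicate 1, at 7050, stood well above the other 5, yet the lowest SCI3d array still exceeded the highest control.

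The leucine enzyme Lars1 ranged from 2994 to 3592 in controls (median 3463) and from 4810 to 6525 in SCI3d (median 5608), with no overlap and a log2 change of 0.75 (SE 0.12, adjusted p = 3.21e-05). Hars1, for histidine, ranged from 776 to 1526 in controls (median 1336) and from 1532 to 2400 in SCI3d (median 2180). It rose by 0.72 (SE 0.14, adjusted p = 0.000333), and its groups were separated by a narrow margin. Cars1, for cysteine, read 898 to 1429 in controls (median 1024) and 1211 to 2356 in SCI3d (median 1845). These ranges overlapped, and the rise was 0.71 (SE 0.17, adjusted p = 0.00261). Eprs1 encodes the joined glutamate and proline enzyme. It read 3359 to 4255 in controls (median 3820) and 4448 to 9188 in SCI3d (median 5327), a rise of 0.62 (SE 0.16, adjusted p = 0.00473).

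Smaller rises came from Wars1 (0.53), Aars1 (0.42), Sars1 (0.37) and Mars1 (0.36), which serve tryptophan, alanine, serine and methionine. Wars1 is also known in other settings as an interferon-induced gene. Its signal was 1375 to 1780 in controls (median 1591) and 1832 to 3128 in SCI3d (median 2127), and its adjusted p was 0.0157. None of 12 measured interferon-response genes was called against controls on day 3, 8 or 14, though 10 had a higher mean on day 14. From day 3 to day 14, 4 of the 12 were called higher, against 7.99% of all probe sets. Their bearing on Wars1 was not tested. Qars1, the glutamine enzyme, was the cytosolic synthetase that fell by its brightest probe set. It read 7776 to 9668 in controls (median 8571) and 6436 to 7217 in SCI3d (median 6908), without overlap, and changed by −0.33 (SE 0.10, adjusted p = 0.0231). The 5 genes that were not called, Farsa, Rars1, Iars1, Vars1 and Farsb, lay between −0.28 and 0.31. Farsa and Farsb encode the subunits of 1 enzyme, and their changes were 0.31 (SE 0.13) and −0.28 (SE 0.18), with adjusted p-values of 0.111 and 0.329.

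Kars1 and Gars1, whose lysine and glycine enzymes serve cytosol and mitochondrion from 1 gene, both rose on day 3. Kars1 ranged from 11206 to 13709 in controls (median 12708) and from 19716 to 25682 in SCI3d (median 23332), a rise of 0.84 (SE 0.13, adjusted p = 1.1e-05). Gars1 ranged from 3279 to 3954 in controls (median 3599) and from 3941 to 7972 in SCI3d (median 5436), a rise of 0.60 (SE 0.13, adjusted p = 0.0015). The lowest SCI3d array for Gars1 fell just inside the control range.

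**Figure D2:**
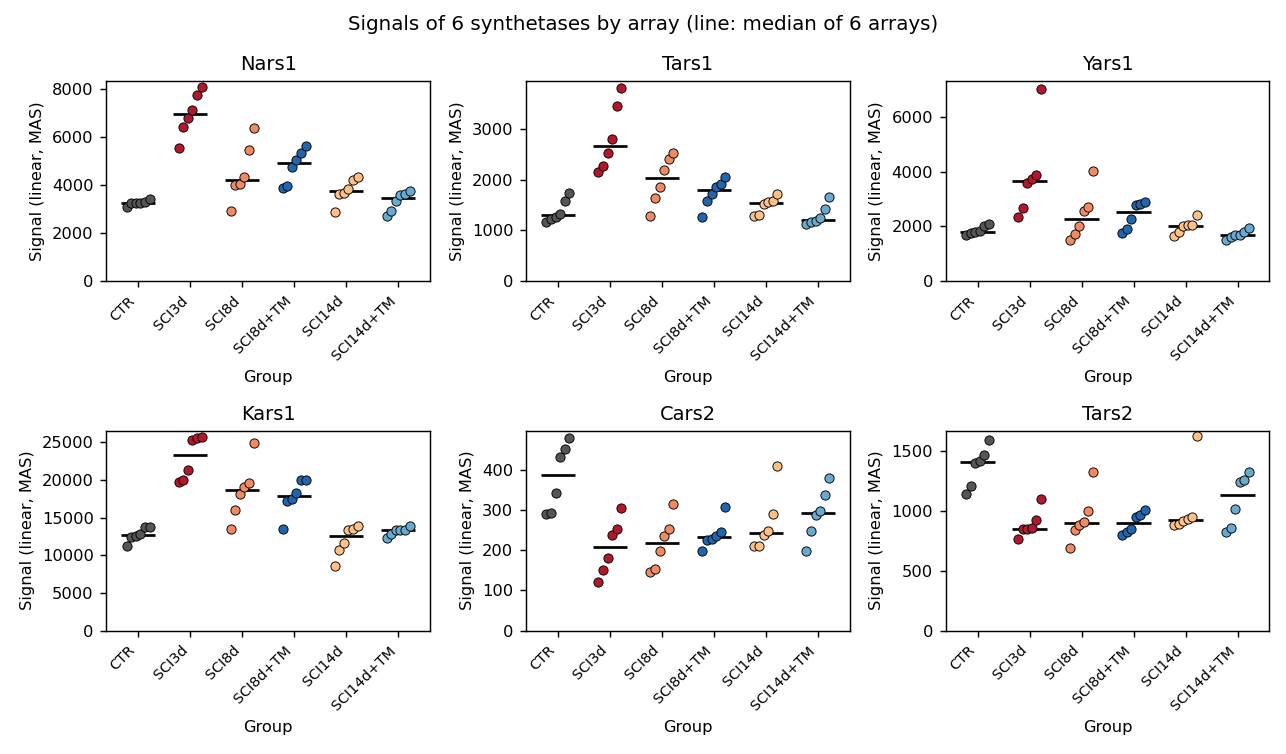
Linear signal of 6 synthetase genes (y axis) on every array of the 6 groups (x axis). Points are single arrays, drawn from low to high within a group, and lines are medians of 6 arrays. Nars1, Tars1, Yars1 and Kars1 are highest in SCI3d, while Cars2 and Tars2 are below most controls in SCI3d.

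Several genes had a second reading. The other probe sets of Gars1 (0.80, adjusted p = 0.00083), Hars1 (0.65, adjusted p = 0.0116) and Wars1 (0.51, adjusted p = 0.0145) were also called higher on day 3. For Cars1, 2 of 3 other probe sets rose, by 0.69 and 0.82, and the dimmest read 0.12. For Eprs1, the probe set of nearest brightness rose by 0.73 (adjusted p = 0.0462), and the 2 dimmer ones read 0.75 and 0.11 without a call. The other probe sets of Kars1, Lars1 and Mars1 were dimmer and not called, at 0.74, 0.30 and 0.91. Vars1, the valine enzyme, was not called by its brightest probe set (−0.22, adjusted p = 0.361), yet a dim one was called lower (−1.18, SE 0.39, adjusted p = 0.0343).

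Leaving out 1 array at a time kept 13 of the 20 calls of day 3. The 7 that were lost without some array were Aars1, Mars1, Wars1, Qars1, Fars2, Eefsec and Eef1akmt4. Wars1 was lost without SCI3d replicate 1 (adjusted p = 0.0571). Qars1 was lost without CTR replicate 1 or 5 (0.0598 and 0.0525), and Mars1 without CTR replicates 4 and 5 or SCI3d replicates 1 and 3 (0.0614 to 0.0957). Aars1 was lost without any of 9 of the 12 arrays, with an adjusted p of 0.0527 to 0.112, and was kept without CTR replicate 6, SCI3d replicate 3 or SCI3d replicate 5.

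Promoter stretches of the cytosolic synthetases are shown because 11 of 17 of these genes rose on day 3 and because a motif for ATF4 can be looked for in them. RefSeq promoter windows of GRCr8, each 300 bases with 250 before the start site and 50 after it, were found for 43 of the 46 genes. The letters TGATGNAA, the core of the C/EBP-ATF response element, were searched on both strands. They occurred in 7 of the 43 members, all of them cytosolic synthetases, and in 3.98% of 33469 promoters. The windows of 6 of them, below, are on the gene's own strand, with the matched letters in capitals and 10 bases on either side unless the window ended sooner.
Nars1, chr18:60275779-60275806, minus strand: ctaggtgatcTGATGCAAcgcttcagtc
Tars1, chr2:62114812-62114839, minus strand: tggcgtcccgTTGCATCAgctggttagc
Yars1, chr5:146820191-146820212, plus strand: cgagctcagcTGATGCAAcctg
Cars1, chr1:208225335-208225362, minus strand: ggcgccgcggTTGCATCAgattctggaa
Mars1, chr7:65023753-65023780, minus strand: cccgttccggTTGCATCAgcgtgggctc
Iars1, chr17:15193659-15193686, minus strand: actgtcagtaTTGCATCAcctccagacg

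The match reads TGATGCAA, on one strand or the other, in each of these windows. Counted from the start site, its first letter lies at −14 in Nars1, −27 in Tars1, 39 in Yars1, 18 in Cars1, −17 in Mars1 and −24 in Iars1. The other gene with a match, Aars1, is not shown above. Its promoter matched as TTGCATCA at −112 and, with another letter, as TTTCATCA at 10. Of the 7 genes with a match 6 were called higher on day 3, and Iars1 was not (log2 change −0.12, SE 0.17). All 7 are cytosolic synthetases, and of the 9 cytosolic synthetases with a window but no match, 5 were called higher. Over all genes on the array with a promoter window, 9.19% of 283 with the match and 9.26% of 11450 without it were called higher on day 3, so over the array as a whole the shares with and without the match were close. Hars1, Lars1, Eprs1, Kars1, Sars1 and Wars1 rose and have no match in this window. The E-box CACGTG, a palindrome, was in 9 members against 6.42% of all promoters, and the core of the interferon-stimulated response element was in 0 members against 3.92%. A match is a run of letters and was not tested for binding.

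Of the 13 mitochondrial synthetases, 3 fell on day 3, 0 rose and 10 were not called, with a median log2 change of −0.26. Cars2, the cysteine enzyme, had a signal of 290 to 480 in controls (median 388) and 122 to 306 in SCI3d (median 209). It fell by 0.92 on the log2 scale (SE 0.22, adjusted p = 0.00298), and one SCI3d array reached the control range. Tars2, the threonine enzyme, read 1140 to 1589 in controls (median 1404) and 765 to 1093 in SCI3d (median 849). Its groups did not overlap, and it fell by 0.62 (SE 0.15, adjusted p = 0.0029). A dimmer probe set of Tars2 was not called (−0.36, SE 0.20, adjusted p = 0.243). Fars2, for phenylalanine, read 423 to 605 in controls (median 463) and 270 to 451 in SCI3d (median 349), a change of −0.44 (SE 0.15, adjusted p = 0.0382). That call was lost without any of 5 arrays, which were CTR replicates 2 and 5 and SCI3d replicates 1, 2 and 4 (adjusted p = 0.0778 to 0.116). Aars2 stood at −0.68 (SE 0.25, adjusted p = 0.0551), with an SCI3d array at 726 above the highest control and the other 5 between 202 and 321.

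**Figure D3:**
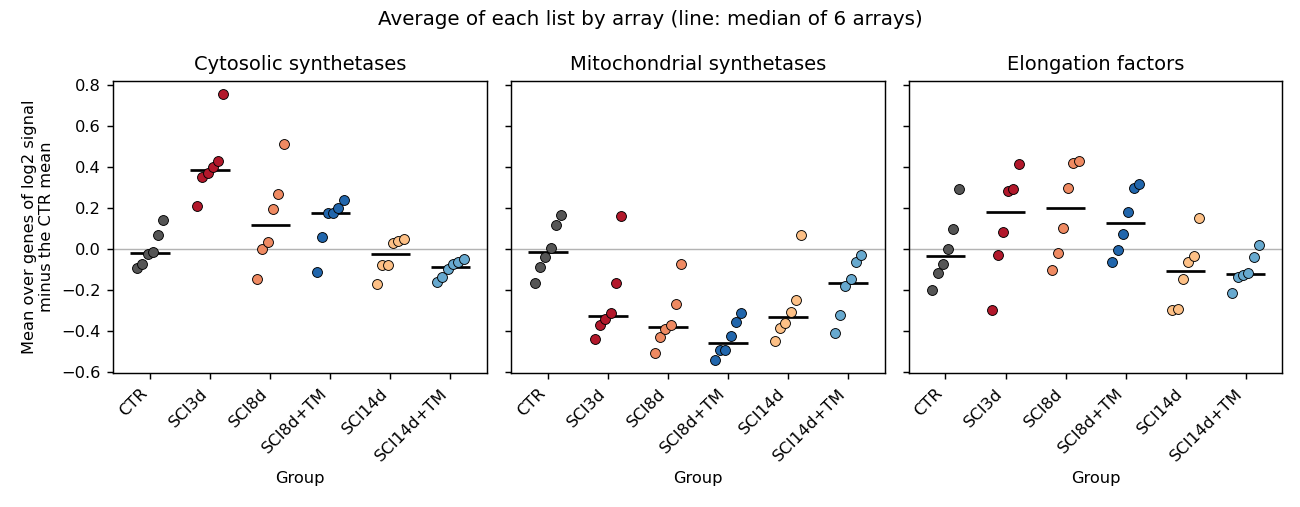
Mean over the genes of each list of the log2 signal minus the gene's CTR mean (y axis), 1 point per array, for 17 cytosolic synthetases, 13 mitochondrial synthetases and 7 elongation factors in the 6 groups (x axis). Lines are medians of 6 arrays. The cytosolic average is highest in SCI3d (0.21 to 0.76), its median in SCI14d equals that of controls (−0.02), and the mitochondrial median is below that of controls in all 5 injured groups.

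Averaged over the list on each array, the cytosolic synthetases stood at −0.09 to 0.14 in controls and at 0.21 to 0.76 in SCI3d, relative to the control mean of each gene. In SCI8d they stood at −0.14 to 0.51 (median 0.12) and in SCI14d at −0.17 to 0.05 (median −0.02). The mitochondrial average was −0.17 to 0.17 in controls, −0.44 to 0.16 in SCI3d (median −0.33), −0.51 to −0.07 in SCI8d (median −0.38) and −0.45 to 0.07 in SCI14d (median −0.33). By day 14 the cytosolic median equalled that of controls (−0.02), while the mitochondrial median lay below every control array. Bulk muscle was measured, so fewer cells of a type and less RNA per cell cannot be told apart. These averages describe the lists and carry no test.

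For 13 amino acids a cytosolic and a mitochondrial gene could be set side by side. They made 14 pairs, since both subunits of the cytosolic phenylalanine enzyme were paired with Fars2, and the joined enzyme Eprs1 was paired with Ears2. The cytosolic log2 change was above the mitochondrial one in 13 of 14 pairs on day 3, 12 on day 8 and 10 on day 14. The median difference was 0.59, 0.66 and 0.35. The widest gaps on day 3 were those of Tars1 over Tars2 (1.64) and Cars1 over Cars2 (1.63), in which the cytosolic gene rose and the mitochondrial one fell. Iars1 and Iars2, for isoleucine, were the exception on day 3, at −0.12 and 0.01. On day 8 the asparagine pair stood the other way, with Nars1 at 0.43 and Nars2 at 0.95. These differences are between changes, and no level of one gene was set against that of another.

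**Figure D4:**
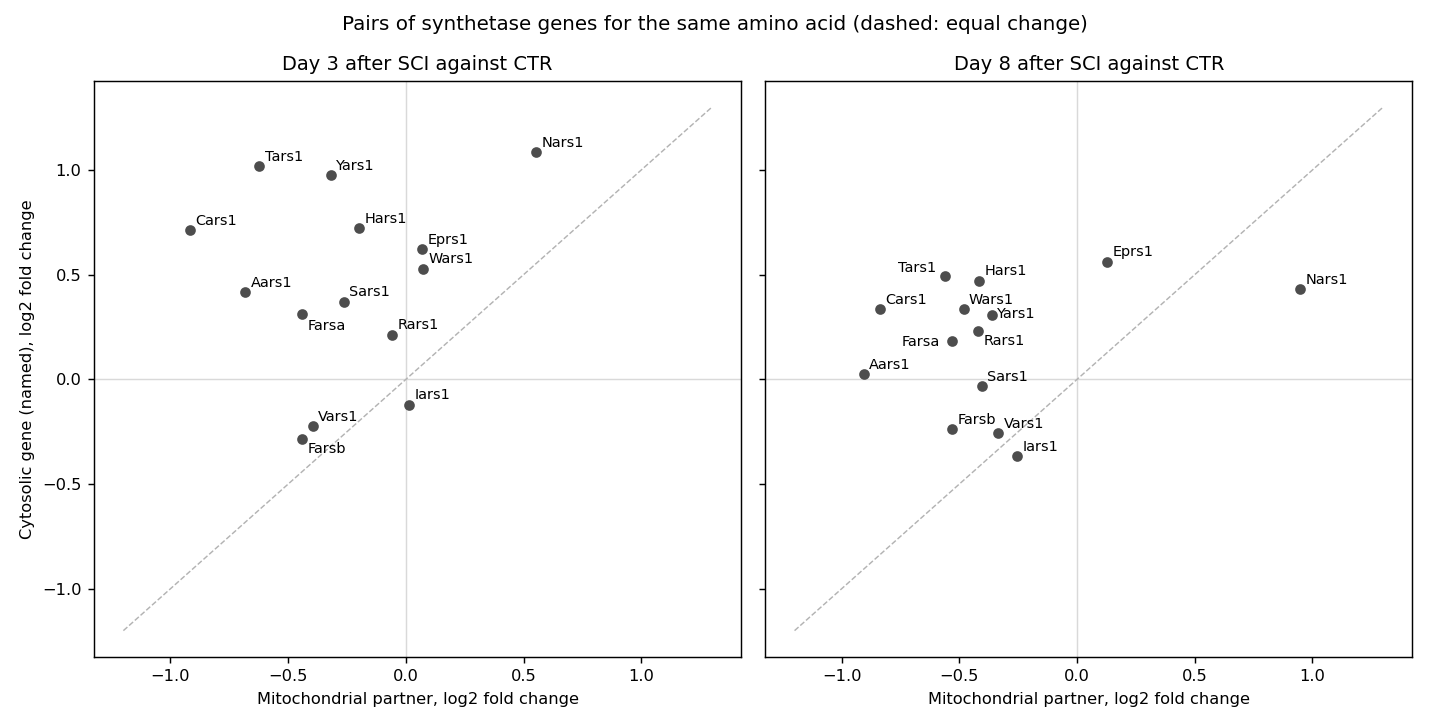
Log2 fold change against CTR of the cytosolic gene (y axis, named beside its point) and the mitochondrial gene (x axis) for 14 pairs of synthetases, on day 3 and day 8, with a dashed line of equal change. On day 3, 13 of 14 pairs lie on the side where the cytosolic change is the larger, and on day 8, 12 do.

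The histidine pair lies head to head on chromosome 18 of GRCr8. Hars1 runs on the minus strand (chr18:28655669-28672712) and Hars2 on the plus strand (chr18:28672810-28682367). The 97 bases between their starts are shown because both genes begin at its ends.
Between Hars1 and Hars2, chr18:28672713-28672809, plus strand: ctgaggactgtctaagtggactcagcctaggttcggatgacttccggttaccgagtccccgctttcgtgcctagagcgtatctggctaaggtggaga
Hars1 had a signal of 1340 to 2087 in SCI8d (median 1694) and changed from controls by 0.72 on day 3 and 0.47 on day 8 (SE 0.14 for both, adjusted p = 0.037 on day 8). Hars2 read 831 to 1075 in controls (median 968), 734 to 1004 in SCI3d (median 818) and 644 to 809 in SCI8d (median 709). It stood at −0.20 on day 3 (SE 0.11, adjusted p = 0.257) and at −0.42 on day 8 (SE 0.11, adjusted p = 0.0201). Every SCI8d array was below every control for Hars2. A second probe set of each gene, less bright, did not give the day 8 calls. It read 0.16 for Hars1 (SE 0.18, adjusted p = 0.676), and for Hars2 −0.07 on day 3 and −0.19 on day 8 (SE 0.16, adjusted p = 0.839 and 0.554). CTR replicate 3, the array with the highest GAPDH 3′ to 5′ ratio (1.61), was far below the other controls for Hars1, at 776 against 1292 for the next. Without it the day 8 call of Hars1 was lost (adjusted p = 0.118) and the day 3 call was kept.

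The multisynthetase complex was measured through 10 members. On day 3, 5 of them rose (Eef1e1, Eprs1, Kars1, Lars1 and Mars1), Qars1 fell and 4 were not called. Among the cytosolic synthetases, 3 of 6 inside the complex and 8 of 11 outside it rose. Of the scaffold proteins, Eef1e1 (AIMP3) ranged from 1483 to 2065 in controls (median 1740) and from 2205 to 4529 in SCI3d (median 2854), without overlap. It rose by 0.79 (SE 0.19, adjusted p = 0.00242). Aimp1 stood at 0.39 (SE 0.16, adjusted p = 0.0983) and Aimp2 at −0.15 (SE 0.17, adjusted p = 0.629), so neither was called.

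Of 7 elongation factors measured, 1 was called higher on day 3 and 0 were called lower. At that time 7.22% of all probe sets and 16.5% of bright genes were called higher. Days 8 and 14 gave 0 calls in either direction, with 3 and 1 of the 7 at an unadjusted limma p under 0.05. Such a p was found for 6397 and 5488 of all 31042 probe sets. Eef1a1, the eEF1A form made in most tissues, ranged from 29154 to 56629 in controls (median 36305) and from 27334 to 53596 in SCI3d (median 45036). Eef1a2, the form of adult muscle and neurons, ranged from 16726 to 40191 in controls (median 27814) and from 18884 to 41077 in SCI3d (median 30449). In both, the control and SCI3d ranges overlapped almost wholly. Their day 3 changes were 0.14 (SE 0.18, adjusted p = 0.692) and 0.12 (SE 0.27, adjusted p = 0.84). The Eef1a1 probe set was thus bright in this bulk muscle too. Both genes are close in sequence, and cross-hybridisation between them was not tested.

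Eef2, the translocase, ranged from 23591 to 30044 in controls (median 25729), from 22099 to 35812 in SCI3d (median 28929) and from 20827 to 24187 in SCI14d (median 21840). It stood at 0.14 on day 3 (SE 0.11, adjusted p = 0.465) and at −0.25 on day 14 (SE 0.11, adjusted p = 0.228) against controls. Between day 3 and day 14 it fell by 0.39 (SE 0.11, adjusted p = 0.0184). The eEF1B subunits Eef1b2, Eef1d and Eef1g stood at 0.07, −0.08 and 0.11 on day 3 and were not called. Eef1b2 read 16691 to 19499 in controls. In SCI8d 5 arrays lay between 25808 and 26983 and replicate 1 lay at 14367, and the change was 0.43 (SE 0.14, adjusted p = 0.0625). Eef1g had another, dimmer probe set that was called higher on day 3, day 8 and day 14 (0.98, 1.05 and 0.93, with adjusted p-values of 0.00639, 0.0114 and 0.038), while the brighter one was not, so the array does not settle this gene.

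Eefsec, which brings selenocysteine to the ribosome, was the factor called on day 3. It ranged from 548 to 814 in controls (median 634) and from 629 to 1001 in SCI3d (median 852), a rise of 0.37 (SE 0.13, adjusted p = 0.0439). The call was lost without any of 9 of the 12 arrays, which were CTR replicates 3 to 6 and all SCI3d replicates but 5 (adjusted p = 0.0611 to 0.111). The methyltransferase Eef1akmt4, which modifies eEF1A, read 236 to 351 in controls (median 298) and 313 to 1076 in SCI3d (median 472), a rise of 0.86 (SE 0.28, adjusted p = 0.031). It was lost without CTR replicate 2, 3 or 6 or SCI3d replicate 1 or 2 (adjusted p = 0.054 to 0.114). Eef1akmt1 and Eef1akmt2 were not called in any comparison.

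Eef2k, the kinase of eEF2, read 852 to 1264 in controls (median 990), 622 to 1116 in SCI3d (median 880), 1107 to 2730 in SCI8d (median 1567) and 1161 to 2612 in SCI14d (median 1576). The later groups reached well above controls, with their lowest arrays inside the control range. Against controls it stood at −0.22 on day 3, 0.73 on day 8 and 0.70 on day 14 (SE 0.28, adjusted p = 0.681, 0.119 and 0.165). Day 8 exceeded day 3 by 0.94 (SE 0.28, adjusted p = 0.0345) and day 14 exceeded day 3 by 0.92 (SE 0.28, adjusted p = 0.0258). Another probe set of nearly equal brightness fell on day 3 (−0.84, SE 0.28, adjusted p = 0.0349) and stood at 0.23 and 0.40 on day 8 and day 14.

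**Figure D5:**
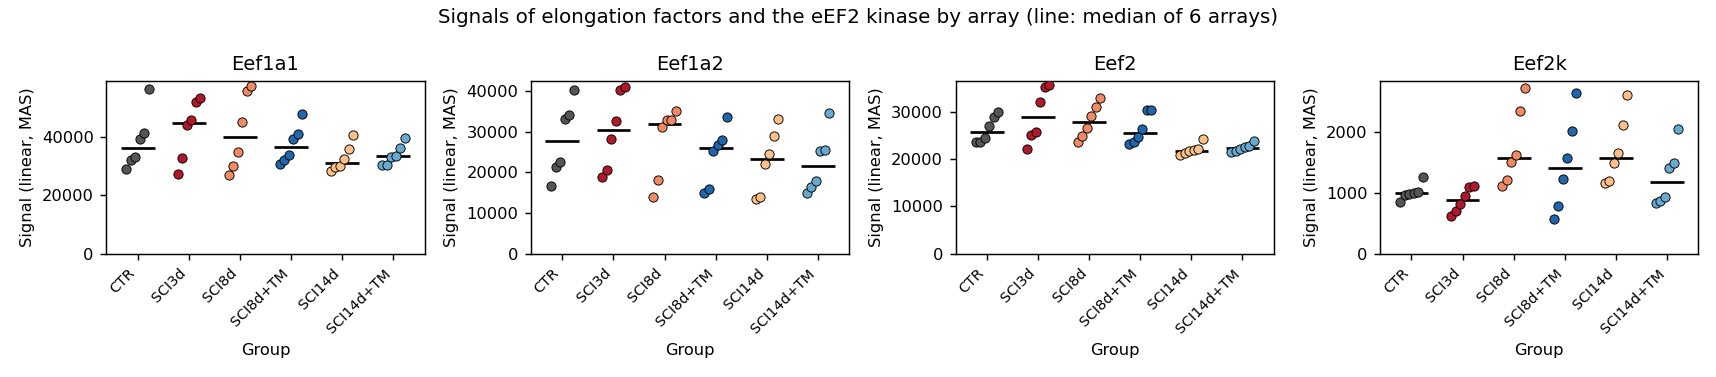
Linear signal of Eef1a1, Eef1a2, Eef2 and Eef2k (y axis) on every array of the 6 groups (x axis). Points are single arrays and lines are medians of 6 arrays. The ranges of Eef1a1 and Eef1a2 overlap in all groups, while Eef2k has its lowest median in SCI3d (880) and its highest in SCI14d (1576).

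On day 8, 3 of 17 cytosolic synthetases were higher than in controls and 5 of 13 mitochondrial ones were lower. Of the 46 members, 5 were higher and 5 lower, with 3.01% and 3.28% of all probe sets called in those directions. Among the 29 bright members 4 were higher and 0 lower, against 5.6% and 9.23% of bright genes. With the arrays scaled to the GAPDH controls the counts were 0 higher and 3 lower, and without the 3 arrays least like their group they were 13 and 7. The higher ones were Eprs1 (0.56), Kars1 (0.52), Tars1 (0.49), Hars1 and the mitochondrial Nars2 (0.95). The lower ones, all mitochondrial, were Aars2 (−0.91), Cars2 (−0.84), Tars2 (−0.56), Fars2 (−0.53) and Hars2. The second probe sets of Tars2 (0.054, adjusted p = 0.912) and Hars2 were not called, and neither was the dim one of Kars1 (0.01). Kars1 read 13450 to 24947 in SCI8d (median 18656), and its call (adjusted p = 0.0106) was the one that was kept whichever single array was left out.

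Nars2, the mitochondrial asparagine enzyme, read 226 to 376 in controls (median 325) and 273 to 1005 in SCI8d (median 676). In SCI8d 5 arrays, at 458 or more, were above every control, and replicate 1, at 273, lay among the controls. Cars2 read 145 to 316 in SCI8d (median 218) and Aars2 180 to 520 (median 224), against 405 to 585 in controls for Aars2 (median 479). For both, SCI8d replicate 1 was the highest array of its group. That array was also the lowest of its group for Kars1, Tars1, Eprs1, Hars1 and Eef1b2. Without it 19 members were called on day 8 in place of 10. Without SCI8d replicate 2, 4, 5 or 6 the number was 3, 4, 5 and 5, and without CTR replicate 2 or 5 it was 4 and 5.

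On day 14 few members differed from controls. Of the 46, 0 were called higher and 1 lower, where 1.52% and 1.67% of all probe sets were. An unadjusted limma p under 0.05 was found for 13 members and for 5488 of all 31042 probe sets. The methods' t-test gave 17 members before adjustment and 0 after it, and 5238 and 335 of all probe sets. The gene was Rars2, the mitochondrial arginine enzyme, at 632 to 1084 in controls (median 834) and 518 to 660 in SCI14d (median 597). It fell by 0.47 (SE 0.14, adjusted p = 0.0459), and the call was lost without any of 10 of the 12 arrays, the exceptions being CTR replicate 3 and SCI14d replicate 2 (adjusted p = 0.0507 to 0.134). The mean was lower than in controls for 12 of 13 mitochondrial synthetases and for 8 of 17 cytosolic ones, and the medians were −0.39 and 0.01, against 0.08 over all probe sets. The 12 muscle fibre markers summed to 346095 to 679426 in SCI14d (median 532627) and to 576348 to 832086 in controls (median 622035), and their part in the mitochondrial median was not tested.

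The injured groups were also compared directly. From day 3 to day 8, 7 members fell and 1 rose, against 3.14% and 3.66% of all probe sets. From day 3 to day 14, 16 fell and 1 rose, against 4.94% and 7.99%. Kars1 fell most clearly between day 3 and day 14 (−0.95, SE 0.13, adjusted p = 4.66e-06), followed by Nars1 (−0.89, SE 0.14, adjusted p = 4.47e-05) and Tars1 (−0.90, SE 0.16, adjusted p = 0.00019). The riser in both comparisons was Eef2k. The number of calls from day 3 to day 14 was 5 when arrays were scaled to the GAPDH controls and 27 when they were centred on the median.

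Training had no called effect on any of the 46 genes. SCI8d + TM against SCI8d gave 0 calls, with 0% of all probe sets called and 2 members at an unadjusted limma p under 0.05. Such a p was found for 1343 of all 31042 probe sets. The log2 differences of the members ran from −0.62 to 0.39. SCI14d + TM against SCI14d also gave 0 calls, with 0.00322% of all probe sets called and 3 members at an unadjusted p under 0.05, and differences from −0.45 to 0.37. Over all probe sets 1849 had such an unadjusted p. The methods' t-test gave 0 members after adjustment in both comparisons, and 1 and 6 before it. Before adjustment it gave 1252 and 1785 of all probe sets. The standard errors of the members' differences were 0.10 to 0.28, which limits the size of change that could be detected. No member had a called difference between the training effects at day 14 and day 8 (smallest adjusted p = 0.918, with 0 at an unadjusted p under 0.05).

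Rars2, the gene called on day 14, read 688 to 831 in SCI14d + TM (median 758) against 518 to 660 in SCI14d. It was not called, with a difference of 0.36 (95% interval 0.09 to 0.64, adjusted p = 0.753). Kars1 read 12293 to 13852 in SCI14d + TM (median 13312) and 8562 to 13881 in SCI14d (median 12503), and the ranges overlapped. Nars1 read 3880 to 5641 in SCI8d + TM (median 4912) and 2908 to 6405 in SCI8d (median 4207), again overlapping.

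SCI14d + TM was set against SCI8d as well, a comparison in which 6 days and the training differ together and cannot be told apart. It gave 0 member calls, against 0.11% of all probe sets higher and 0.0805% lower, although 21 members had an unadjusted limma p under 0.05 (19 and 0 before and after adjustment by the methods' t-test). Tars1 (−0.58, SE 0.16) and Kars1 (−0.47, SE 0.13) came nearest, both with an adjusted p of 0.0951. Without SCI8d replicate 1 the number of calls was 7. Against uninjured controls, SCI8d + TM had 6 members higher and 9 lower, where 6.48% and 5.71% of all probe sets were. The higher ones were Nars1, Eprs1, Kars1, Eef1e1, Eef1b2 and Eefsec, and 7 of the 9 lower ones were mitochondrial (Tars2, Fars2, Sars2, Wars2, Hars2, Aars2 and Cars2). The number fell from 15 to 8 without SCI8d + TM replicate 4 or 5, and to 3 with the arrays scaled to the GAPDH controls. The second probe sets of Tars2 (−0.07), Hars2 (−0.15) and Wars2 (−0.18) were not called. SCI14d + TM had 0 members called against controls, with 0.258% of all probe sets higher and 0.0999% lower, and 6 members at an unadjusted limma p under 0.05. The methods' t-test gave 0 after adjustment there and 9 before it. These comparisons share their control or SCI8d arrays with those above.

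Neighbouring steps of translation were read from lists of related genes. On day 3, 7.22% of all probe sets were called higher and 9.24% lower, and 16.5% and 18.3% of bright genes. These shares stand beside each day 3 count of the lists. Among 6 termination and ribosome-rescue factors, 4 rose on day 3 and 0 fell. Etf1, the release factor eRF1, read 2833 to 3373 in controls (median 3099) and 5251 to 8143 in SCI3d (median 6969), a rise of 1.11 (SE 0.14, adjusted p = 1.18e-06). Abce1, which splits ribosomes after termination, read 2156 to 2818 in controls (median 2451) and 4429 to 5331 in SCI3d (median 5008), a 2-fold rise (log2 SE 0.16, adjusted p = 2.14e-05). Neither overlapped with controls. Pelo (0.76) and Gspt1 (0.33) rose as well. Of 4 genes of eIF5A and its hypusine modification 2 rose, Eif5a (0.59) and Dohh (0.49), and of 5 diphthamide genes, whose products modify eEF2, 0 were called.

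Of 8 mitochondrial translation factors 2 fell on day 3, Tufm (−0.43, adjusted p = 0.0168) and Mtif2 (−0.53, adjusted p = 0.0226), and 0 rose, against 9.24% of all probe sets and 18.3% of bright genes called lower. Tufm, the mitochondrial counterpart of eEF1A, read 5226 to 7046 in controls (median 6130) and 3984 to 5465 in SCI3d (median 4504). Among 9 other genes of tRNA charging, Qrsl1 (−1.13) and Gatc (−0.47), subunits of the enzyme that makes mitochondrial glutamine tRNA, fell with Aarsd1 (−0.65), and Pus1 (0.78) rose. Gatb, the other subunit of that enzyme, was not called (−0.15, SE 0.24, adjusted p = 0.754). Of 5 selenocysteine genes, Pstk, the kinase that acts on seryl-tRNA on the way to selenocysteine, fell from 1351 to 2332 in controls (median 1961) to 338 to 727 in SCI3d (median 516). Its change of −1.91 (SE 0.23, adjusted p = 5.98e-07) left no overlap, while Sepsecs (0.40) and Sephs2 (0.54) rose.

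Of 20 genes of the amino-acid response, 5 rose on day 3 and 1 fell, against 7.22% and 9.24% of all probe sets. Atf4 read 12270 to 19680 in controls (median 13999) and 14772 to 33908 in SCI3d (median 25280), a rise of 0.72 (SE 0.16, adjusted p = 0.0016) with some overlap. Slc7a1, a cationic amino acid transporter, rose by 1.47, Sesn2 by 1.33, Trib3 by 1.02 and Eif4ebp1 by 0.89, and Atf5 fell by 1.07. Asns, Ddit3, Chac1 and Psat1, other known targets of ATF4, were not called on day 3. On day 8, 1 of the 20 was higher and 3 were lower (3.01% and 3.28% of all probe sets), and on day 14 0 were higher and 2 lower (1.52% and 1.67%).

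Markers of other cells moved with some of these results. On day 3 the 4 measured satellite cell and myoblast markers summed to 4781 to 24377 (median 16590), against 5112 to 9044 in controls (median 5668). Of them Myog alone was called higher. Ncam1 (0.95, limma adjusted p = 0.2), Myod1 (0.195, 0.812) and Cdh15 (0.046, 0.907) were not called. Of 3 erythrocyte markers 2 rose, and Hbb was not called (0.40, limma adjusted p = 0.0627). The sums of all 3, Hbb included, were 40461 to 75871 against 35720 to 47977. Of 14 macrophage markers Cd163 alone was called, with sums of 24329 to 66992 in SCI3d and 20756 to 41467 in controls. Of 7 adipocyte markers 4 fell, of 9 fibroblast markers 1 fell (Lum) and of 4 Schwann cell markers 1 fell (S100b), while 0 of 6 endothelial markers were called. The other 3 Schwann cell markers had means above controls on day 3 and on day 8. The median log2 change of that list was 0.44 and 0.30. On day 8, 2 fibroblast, 2 satellite cell and myoblast and 2 erythrocyte markers were higher than in controls, and 2 adipocyte markers and S100b were lower. In SCI8d + TM, 5 macrophage, 5 fibroblast, 3 satellite cell and myoblast and 2 erythrocyte markers were higher than in controls. Lower than in controls were 5 adipocyte, 2 endothelial and 1 Schwann cell markers. Against untrained SCI8d, 0 markers of each of these lists were called. On day 14, 2 fibroblast markers were higher and 1 adipocyte marker lower than in controls. From day 3 to day 14, 6 fibroblast markers and 1 Schwann cell marker rose, and 1 erythrocyte and 1 satellite cell and myoblast marker fell. From day 3 to day 8, 6 fibroblast markers and 1 satellite cell and myoblast marker rose. The shares of all probe sets called in these comparisons are those given above for the members. The part of these cells in the changes of the members was not tested.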

How the data were processed

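Total RNA of left soleus muscle from 36 rats was hybridised by the authors to Affymetrix Rat Genome 230 2.0 arrays, 1 array per rat. The deposited values are linear signal intensities from MAS 5, scaled by the authors to a common trimmed mean, 1 value per probe set with no detection call. The study's methods kept probe sets with at least 4 present calls and report 31099 that met this, as many as were deposited. The present calls themselves could not be rechecked here, and no filter on dim probe sets was added. Of the 31099 probe sets deposited, 57 controls were left out. Gene symbols came from the platform annotation, and RefSeq's gene table for GRCr8 held 20758 of the 20826 that had a single one. Array number and signal, not read depth, limit the precision.

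Log2 intensities, with no offset, were fitted in limma 3.58.1 (R 4.3.3) as 6 groups over all arrays (30 residual and 5.45 prior degrees of freedom, intensity trend), with Benjamini-Hochberg adjustment over all 31042 probe sets and a threshold of 0.05. The fit was tested on simulated data. The methods' t-test per probe set was an alternative, as were other scalings (quantile, median, the 3 GAPDH control probe sets), an offset of 32, leaving out the dimmest 40%, no trend, array weights, fits of 2 groups, averaging all probe sets per gene, and leaving out each array. A further 4 alternatives were chosen after seeing the data: leaving out 3 arrays with a GAPDH 3′ to 5′ ratio over 1.3, leaving out the 3 arrays least like their group, replicates 5 and 6 as a batch, and list medians within each of those batches. The mean log2 of 9 hybridisation controls on an array was 11.26 to 12.37 for replicates 1 to 4 and 10.98 to 11.33 for replicates 5 and 6. Every group holds both. Nothing in the labels says what the replicate numbers share, so the numbers were not taken as pairs. Of 90 same-numbered pairs 30 correlated over 0.1, and no rate was computed for pairs of different numbers. The limma p-values test differences between groups against the spread between rats, which was estimated over all 6 groups and moderated across probe sets.

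Values by group were given for every member called in a comparison of the study except Aars1, Sars1 and Mars1. They were also given for Eef1a1, Eef1a2, Eef2, Eef2k, Wars1, Gars1, Kars1 and Eef1e1, and for up to 4 related genes per list. Exceptions named after their values were seen are Eef1b2, Eef1g, Farsa, Farsb, Iars1, Vars1, Gatb, Aimp1, Aimp2, Trib3, Atf5, Asns, Ddit3, Chac1, Psat1, Ncam1, Myod1, Cdh15 and Hbb. The members and lists were chosen with earlier results of these data known. Some items are not reported here. Promoter sequences are RefSeq's, for GRCr8, and Python 3.11.15 with pandas 2.3.3 read them.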

Additional observations from a re-analysis of the deposited data

Results flagged for a closer look

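For 28 members, in each of 6 groups, the highest and the lowest array were compared with the others by Dixon's ratio, the gap to the nearest array over the whole range of the group. Of 168 groups of values 4 passed the 95% limit for 6 arrays, and chance alone gives about 5 in 100. For Tars2 in SCI14d the ratio was 0.881, since replicate 2 read 1619 and the next array 948. For Hars1 in controls it was 0.753, with replicate 3 at 776 and the next at 1292. Replicate 3 is also the control array of high GAPDH 3′ to 5′ ratio (1.61). For Eef1e1 in SCI14d + TM the ratio was 0.73, with replicate 2 at 1595 and the next at 1906. For Aars2 in SCI3d it was 0.637, with replicate 3 at 726 and the next at 321. SCI14d replicate 2 is 1 of the 3 arrays that correlated least with their own group.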

How the results depend on the processing

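Counts are of members called, with the reported count in brackets after each comparison: SCI3d [20], SCI8d [10], SCI14d [1] and SCI8d + TM [15] against CTR, SCI8d [8] and SCI14d [17] against SCI3d, SCI14d + TM [0] against SCI8d and against CTR, and the F-test [25]. Scaled to the GAPDH controls, they were 12 for SCI3d, 3 for SCI8d, 0 for SCI14d and 3 for SCI8d + TM against CTR, 1 and 5 against SCI3d, and 12 in the F-test. That scaling moved the median of all probe sets from 0.08 to 0.28 for SCI14d against CTR, where the mitochondrial median was then −0.19 and the cytosolic 0.21. Median centring gave 3 for SCI14d against CTR, with a cytosolic median of −0.12, and 13 and 27 for SCI8d and SCI14d against SCI3d. Array weights gave 19 for SCI8d, 4 for SCI14d and 1 for SCI14d + TM against CTR, 9 for SCI14d + TM against SCI8d and 5 for SCI8d against SCI3d. Fits of 2 groups gave 0 for SCI14d against CTR, and 1 and 10 against SCI3d. The methods' t-test gave 2 for SCI8d and 0 for SCI14d against CTR, and 0 and 7 against SCI3d. Leaving out the dimmest 40% gave 16 for SCI8d against CTR, no intensity trend gave 0 for SCI14d against CTR and 5 for SCI8d against SCI3d, and averaging all probe sets per gene gave 5 for the latter. Without the 3 arrays least like their group the counts were 20 for SCI8d against CTR, 8 for SCI14d + TM against SCI8d, and 5 and 10 against SCI3d. The cause of these shifts was not tested.

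With 1 array left out, the counts ranged from 14 to 21 for SCI3d, 3 to 19 for SCI8d, 0 to 2 for SCI14d, 8 to 15 for SCI8d + TM and 0 to 0 for SCI14d + TM against CTR. They ranged from 3 to 11 and 12 to 17 against SCI3d, 0 to 7 for SCI14d + TM against SCI8d, 0 to 0 for both training comparisons and 23 to 27 in the F-test. For SCI8d against SCI3d the count was 3 without SCI3d replicate 2 or 4 or SCI8d replicate 3, 4 without SCI3d replicate 1, and 5 without SCI8d replicate 1 or 4. For SCI14d against CTR it was 2 without SCI14d replicate 2. The second probe set of Tars2 read 0.054 on day 8 (adjusted p = 0.912), opposite in sign to the brighter one. With the replicate number as a replicate block the counts were 20 for SCI3d, 11 for SCI8d, 1 for SCI14d and 14 for SCI8d + TM against CTR, 7 and 17 against SCI3d and 25 in the F-test. For 10 of 36 arrays the mean correlation with arrays of other groups was highest for their own number. Same-numbered pairs had a mean correlation of 0.075 and 0.09 for replicates 5 and 6, and of −0.018 to 0.032 for the others. Within replicates 1 to 4 and within 5 and 6, the day 3 medians were 0.52 and 0.41 for cytosolic and −0.26 and −0.31 for mitochondrial synthetases.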
